A study of Mus musculus with 8 samples.

Results

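Cells change how tightly their DNA is packed with enzymes that write marks on histones or DNA, enzymes that remove those marks, and ATP-driven machines that move nucleosomes. The genes for these 3 classes were followed in the Myc-driven mouse lymphoma cell line λ820 (L820 in the sample titles) after 24 h of drug treatment. The members are the genes whose current symbol begins Kdm, Kmt, Setd, Prmt, Hdac, Sirt, Dnmt, Smarc or Ezh, or Kat or Tet followed by a digit, and which have a probe that both arrays of 1 or more groups detected (detection p-value under 0.05). By symbol 132 probes of 78 genes belonged to these families, of 25697 probes in all. The detection rule kept 101 of these probes, for 65 genes, among 11761 kept probes and 7947 named genes in the whole series. Of the 65 members, 29 were writers (Kmt, Setd, Prmt, Kat, Dnmt and Ezh), 26 were erasers (Kdm, Hdac, Sirt and Tet) and 10 were remodellers (Smarc). These are families of names. Some members act mostly on other proteins or outside the nucleus, such as the mitochondrial sirtuins Sirt3 and Sirt5.

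RNA was measured on 8 Illumina bead arrays with 2 arrays in each of 4 groups. One group received only the solvent DMSO, diluted 1000-fold. The second received 10 µM RVX2135, an inhibitor of BET bromodomain proteins. The third received 10 µM VE-821, an inhibitor of the kinase ATR, and the fourth received 10 µM of both. All groups were the same cell line and were harvested at 24 h. The comparisons ask how each inhibitor alone and the pair change gene expression, and whether the pair does more than the sum of its parts. Nothing in the labels says that the 2 arrays of a group are separate cultures. The p-values therefore speak only of the spread among these arrays, and that spread may be purely technical.

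As background, BET proteins read acetylated histones and recruit the transcription machinery, while ATR is the kinase that answers stalled DNA replication. Writers and erasers of histone acetylation set the marks that BET proteins read. Polycomb repressive complex PRC2, whose catalytic subunit is Ezh2, methylates histone H3 at silenced genes, and Dnmt1 copies DNA methylation onto newly made DNA. Both are typically abundant in dividing cells. SWI/SNF complexes, built around the ATPases Smarca4 or Smarca2, slide or eject nucleosomes.

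Across arrays, 11012 to 11478 probes were detected (42.9% to 44.7% of all). The 2 arrays of a group correlated at 0.995 to 0.996 over the brightest kept probe of each named gene. Among B lineage markers, 6 of the 8 with a probe were detected with DMSO. Their summed normalized signal above the offset was 5393 to 5585 with DMSO, 2467 to 2797 with RVX2135, 2301 to 2802 with VE-821 and 567.4 to 586.6 with both drugs. No myeloid, erythroid and platelet, or stroma and endothelium marker was detected on both arrays of any group. Of 7 T and NK cell markers with a probe, 3 were detected with DMSO, at a summed signal of 55.9 to 58.8, and 0 in the other groups (32.5 to 33.1 with both drugs). Fewer cells of a type and less RNA per cell cannot be told apart in these bulk samples. The part that the falling B lineage markers play in the results below was not tested.

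The detection rule left out 13 genes of these families. Dnmt3a, Dnmt3l, Ezhip, Hdac9, Hdac11, Kdm4d, Kdm5d, Prmt8, Smarca1, Smarcd3 and Tet3 were detected on 0 arrays, Kdm2b on 1 array and Ezh1 on 3 arrays without ever reaching both arrays of a group. No Tet gene was therefore a member, and Kmt2a, Kmt2d and Tet2 were not analysed here. Just inside the rule, Prmt9 and Setd4 passed only through the arrays with both drugs. Prmt9 read 4.47 and 4.65 with DMSO, 4.61 and 4.46 with RVX2135, 4.48 and 4.57 with VE-821 and 4.70 and 4.81 with both drugs. Neither Prmt9 nor Setd4 was called in any comparison, and 56 of the 65 members were detected on all 8 arrays. All values below are log2 intensities after background correction and quantile normalization. Each gene is represented by its brightest probe, and intensities are never compared between probes. A change is a difference of log2 group means with its standard error (n = 2 arrays per group), and a gene is called when its adjusted p (limma, Benjamini-Hochberg over all 7947 genes) is under 0.05.

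With both drugs, 18 members rose, 25 fell and 22 were not called. Over all genes tested 59.7% were called, 28.9% higher and 30.8% lower, so the share of members called (66.15%) lay near this wide background. The 3 classes had different splits. Writers had 8 members higher, 8 lower and 13 not called. Erasers had 10 higher, 10 lower and 6 not called. Remodellers had 0 higher, 7 lower and 3 not called. The median log2 change of the remodellers was -0.66, against 0.07 for writers, 0.01 for erasers and -0.01 for all genes. The median of a class moved between replicate arrays by an SD of 0.03 for writers and 0.06 for both other classes. The writers and erasers spread to both sides of a median near 0, and the remodellers lay mostly below 0. The difference between classes was not tested. Of the 43 called members, 36 were called whichever single array was left out.

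**Figure D1:**
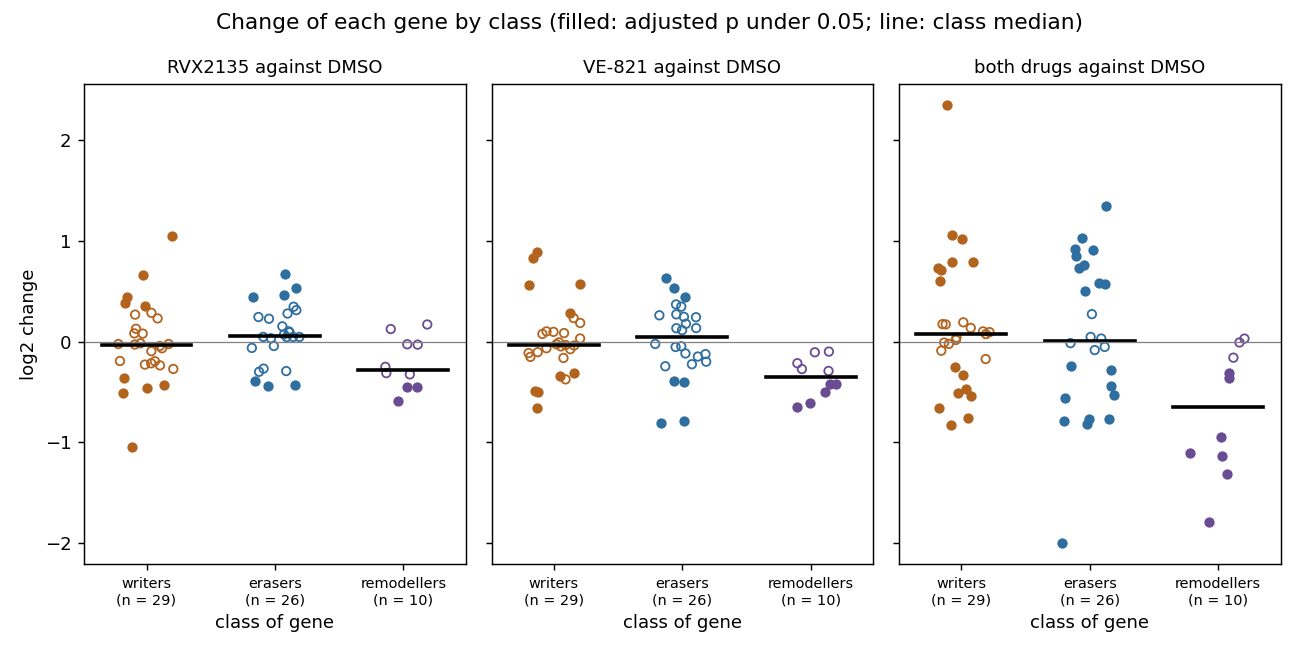
Each point is 1 gene, with its log2 change against DMSO on the vertical axis, by class, for RVX2135, VE-821 and both drugs; filled points have an adjusted p under 0.05 and the line is the class median. With both drugs the 10 remodellers have a median of -0.66 and 0 calls above 0, while writers and erasers are called equally often in each direction.

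The promoters of 4 members are printed because they stand for the patterns that follow, namely a writer that rose with every treatment (Prmt2), an eraser that rose with both drugs (Sirt1), a writer that fell with every treatment (Ezh2) and a falling SWI/SNF subunit (Smarcc1). Each line gives 300 bases around the gene start, most of them upstream, from the RefSeq annotation of mouse build GRCm38.p6, 5′ to 3′ on the gene's own strand. Prmt2 is at chr10:76237816-76238115 on the minus strand, Sirt1 at chr10:63338986-63339285 on the minus strand, Ezh2 at chr6:47594981-47595280 on the minus strand and Smarcc1 at chr9:110131774-110132073 on the plus strand. Capitals mark every match on either strand to 4 sets of letters, which are the Myc-type E-box CACGTG, an E2F-like site TTTNNCGC, the CCAAT box and the stress-response letters TGATGNAA.
Prmt2: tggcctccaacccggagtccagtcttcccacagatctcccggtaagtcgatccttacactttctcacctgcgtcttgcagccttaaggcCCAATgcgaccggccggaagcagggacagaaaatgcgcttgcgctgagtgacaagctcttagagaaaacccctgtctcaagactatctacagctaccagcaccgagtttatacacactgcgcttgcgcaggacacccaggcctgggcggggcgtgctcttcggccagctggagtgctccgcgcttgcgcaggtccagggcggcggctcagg
Sirt1: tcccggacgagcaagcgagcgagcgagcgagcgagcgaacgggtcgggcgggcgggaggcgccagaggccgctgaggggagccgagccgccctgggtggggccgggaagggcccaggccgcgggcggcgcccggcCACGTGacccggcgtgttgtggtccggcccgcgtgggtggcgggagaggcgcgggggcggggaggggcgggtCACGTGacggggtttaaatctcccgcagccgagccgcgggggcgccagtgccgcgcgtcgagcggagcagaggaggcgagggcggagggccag
Ezh2: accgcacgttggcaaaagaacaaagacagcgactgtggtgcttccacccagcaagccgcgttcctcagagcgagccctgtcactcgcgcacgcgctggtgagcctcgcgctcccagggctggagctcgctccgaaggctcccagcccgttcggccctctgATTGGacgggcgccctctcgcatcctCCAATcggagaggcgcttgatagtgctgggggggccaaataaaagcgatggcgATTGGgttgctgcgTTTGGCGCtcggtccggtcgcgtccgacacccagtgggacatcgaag
Smarcc1: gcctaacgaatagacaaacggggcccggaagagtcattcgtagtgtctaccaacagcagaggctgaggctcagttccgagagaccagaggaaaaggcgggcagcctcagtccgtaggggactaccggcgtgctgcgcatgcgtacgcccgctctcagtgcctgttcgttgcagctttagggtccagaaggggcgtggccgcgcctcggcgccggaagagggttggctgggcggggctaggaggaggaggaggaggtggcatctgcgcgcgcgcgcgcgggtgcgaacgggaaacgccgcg

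Sirt1 held 2 E-boxes. Ezh2 held 1 E2F-like match and 3 CCAAT boxes, Prmt2 held 1 CCAAT box, and none of the 4 sets of letters was in the Smarcc1 window. No match overlapped another in these windows. RefSeq promoters were matched for 58 of the 65 members. The E-box was in 7 of these 58, against 7.15% of 32851 promoters of the same length, and the E2F-like letters were in 6 of 58, against 5.17%. CCAAT was in 29 of 58, against 37.4%, and TGATGNAA in 1 of 58, against 3.97%. A member counted if any of its promoters held the letters, and some had several (Hdac7 had 4). The shares over all promoters count each promoter once, so members had more chances to match and the shares are not strictly alike. Among members with a promoter, 17 rose with both drugs, 21 fell and 20 were not called. The E-box was in 4, 1 and 2 of these, and the E2F-like letters in 0, 3 and 3. The differences were not tested. These are counts of letters in a window, and no binding was measured.

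Among the writers, the arginine methyltransferase gene Prmt2 had the largest rise of any member with both drugs. Its log2 intensities were 6.09 and 6.16 with DMSO, 7.04 and 7.30 with RVX2135, 6.87 and 7.04 with VE-821 and 8.49 and 8.45 with both drugs. The groups with 1 drug lay above DMSO and below both drugs without overlap, and the arrays with RVX2135 and those with VE-821 met at 7.04. With both drugs the change was 2.35 ± 0.116 (SE), or 5.08-fold (adjusted p = 2.13e-08). RVX2135 alone raised Prmt2 by 1.05 ± 0.116 (adjusted p = 7.29e-05) and VE-821 alone by 0.83 ± 0.116 (adjusted p = 0.000418). A second, dimmer Prmt2 probe gave 2.23 with both drugs. All 3 calls were kept when any single array was left out.

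Kmt5b, which adds further methyl groups to monomethylated histone H4, read 7.33 and 7.49 with DMSO, 8.03 and 8.10 with RVX2135, 8.18 and 8.41 with VE-821 and 8.40 and 8.52 with both drugs. All treated arrays lay above both DMSO arrays. Its change was 1.06 ± 0.115 with both drugs (2.08-fold, adjusted p = 1.15e-05), 0.66 with RVX2135 and 0.89 with VE-821, each called in every leave-one-out fit. The gene for the enzyme that places the first methyl group, Kmt5a, moved the other way, reading 9.22 and 9.24 with DMSO, 8.70 and 8.83 with RVX2135, 9.10 and 9.05 with VE-821 and 8.63 and 8.74 with both drugs. The arrays with RVX2135 and with both drugs were lowest. Kmt5a changed by -0.46 with RVX2135 (adjusted p = 0.00548) and -0.54 with both drugs (adjusted p = 0.000686), and with VE-821 it read -0.15 (adjusted p = 0.318). A dimmer Kmt5a probe was not called, with -0.10 for RVX2135 (adjusted p = 0.555) and -0.04 for both drugs (adjusted p = 0.767). Its other dimmer probes gave called falls with RVX2135 (-0.42 and -0.40) and with both drugs (-0.60 and -0.52).

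Histone acetyltransferase genes went both ways. Kat8, which acetylates histone H4, read 7.90 and 7.79 with DMSO, 8.17 and 8.29 with RVX2135, 8.29 and 8.52 with VE-821 and 8.82 and 8.90 with both drugs. The arrays with both drugs stood above all others, and every treated array stood above DMSO. The rise with both drugs was 1.01 ± 0.113 (2.02-fold, adjusted p = 1.34e-05). Kat5, an acetyltransferase of the DNA damage response, read 7.16 and 7.30 with DMSO, 7.54 and 7.62 with RVX2135, 7.80 and 7.80 with VE-821 and 8.12 and 7.91 with both drugs. It stepped up in that order without overlap, by 0.79 with both drugs (adjusted p = 7.35e-05).

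Kat6b read 7.80 and 7.78 with DMSO, 8.21 and 8.26 with RVX2135, 8.07 and 8.09 with VE-821 and 8.49 and 8.55 with both drugs. VE-821 lay between DMSO and RVX2135, and both drugs lay highest. With its rise of 0.73 with both drugs, 3 of the 7 Kat members rose. A dimmer Kat6b probe near background disagreed, with 0.04 for both drugs (adjusted p = 0.796) and 0.34 for RVX2135 (adjusted p = 0.0553). Kat14, a subunit of the ATAC coactivator, read 9.44 and 9.33 with DMSO, 9.18 and 9.15 with RVX2135, 9.44 and 9.39 with VE-821 and 8.78 and 8.67 with both drugs. VE-821 overlapped DMSO, RVX2135 lay just below, and both drugs lay far lower (-0.66, adjusted p = 0.000166). Kat2a, the catalytic subunit of the SAGA and ATAC coactivators, also fell (-0.51, adjusted p = 0.00257). Kat2b, its paralog, read 5.08 and 5.00 with DMSO, 5.11 and 5.14 with RVX2135, 4.66 and 4.74 with VE-821 and 4.73 and 4.84 with both drugs. VE-821 and both drugs lay below DMSO and RVX2135. The call for Kat2b with both drugs (-0.25, adjusted p = 0.0471) was lost in each of the 8 leave-one-out fits. Kat7 (0.17, adjusted p = 0.156) was not called.

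Of the other writers, Prmt6, Setd2 and Setd7 rose with both drugs, by 0.79, 0.60 and 0.71 on the log2 scale. Setd2 trimethylates histone H3 in transcribed genes. Setd7 was dim, and read 4.63 and 4.82 with DMSO, 4.82 and 4.50 with RVX2135, 4.72 and 4.71 with VE-821 and 5.63 and 5.24 with both drugs. The first 3 groups overlapped, and the arrays with both drugs lay above them. It was detected on 1 of 2 arrays with DMSO and with RVX2135 and on both in the other groups. The main arginine methyltransferases Prmt1 (-0.17, adjusted p = 0.153) and Prmt5 (-0.02, adjusted p = 0.855) were not called. Setdb1, which methylates histone H3 at silent repeats, fell by 0.33 (adjusted p = 0.0110), a call lost in 1 leave-one-out fit.

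The Dnmt and Ezh families had 3 members, Dnmt1, Dnmt3b and Ezh2, and each fell with both drugs. Dnmt1 read 10.13 and 9.94 with DMSO, 9.64 and 9.40 with RVX2135, 9.34 and 9.40 with VE-821 and 9.05 and 9.35 with both drugs. Every treated array was below both DMSO arrays. Dnmt1 changed by -0.83 ± 0.131 with both drugs (adjusted p = 0.000192) and by -0.66 ± 0.131 with VE-821 (adjusted p = 0.00404). With RVX2135 its change of -0.51 (adjusted p = 0.0126) was no longer called without DMSO replicate 1 or without RVX2135 replicate 2. Ezh2 read 9.79 and 9.76 with DMSO, 9.35 and 9.34 with RVX2135, 9.20 and 9.37 with VE-821 and 9.40 and 9.22 with both drugs. The 3 treated groups overlapped one another below DMSO. Ezh2 changed by -0.47 ± 0.108 with both drugs (adjusted p = 0.00270), by -0.43 with RVX2135 and by -0.49 with VE-821, the last 2 calls each lost in 2 leave-one-out fits.

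Dnmt3b, which sets DNA methylation at new places, had another order. Its arrays were 8.81 and 8.72 with DMSO, 7.66 and 7.77 with RVX2135, 8.49 and 8.42 with VE-821 and 7.96 and 8.06 with both drugs. RVX2135 alone was lowest, below the arrays with both drugs. The change was -1.05 ± 0.103 with RVX2135 (2.07-fold lower, adjusted p = 3.08e-05) and -0.76 ± 0.103 with both drugs (adjusted p = 6.36e-05). With VE-821 it was -0.31 (adjusted p = 0.0494), lost in all 8 leave-one-out fits. A dimmer Dnmt3b probe near background gave -0.22 with RVX2135 and -0.14 with both drugs, neither called.

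Genes that work with these writers went both ways. Of 6 DNA methylation partners tested, 1 rose and 3 fell with both drugs, led by Uhrf1 (-1.64, adjusted p = 2.63e-07), which brings Dnmt1 to replicated DNA. Uhrf1 also fell with RVX2135 (-1.01) and with VE-821 (-0.56). Of 8 PRC2 partners 1 rose and 3 fell: Phf19 (-0.95), Epop (-0.64) and Rbbp7 (-0.49). The core subunits Eed (0.12, adjusted p = 0.354) and Suz12 (-0.06, adjusted p = 0.723) were not called. Beside these falls, 12 of 13 S phase genes tested fell with both drugs (median -0.67), where 30.8% of all genes fell. With RVX2135 12 of 13 fell (median -0.73), against 15.4% of all genes, and with VE-821 7 of 13 (median -0.32), against 11.7%. The part of S phase in the falls of Dnmt1, Uhrf1 and Ezh2 was not tested.

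The erasers divided by family with both drugs. Of 11 lysine demethylases (Kdm), 7 rose and 2 fell, with a median of 0.58. Of 9 Hdac genes 1 rose and 6 fell, with a median of -0.28. The 6 sirtuins had 2 higher, 2 lower and 2 not called. Over all genes 28.9% were higher and 30.8% lower. The calls that held in every leave-one-out fit numbered 9 for Kdm, 5 for Hdac and 3 for the sirtuins. That split between Kdm and Hdac was seen after the values and was not tested. Sirt1, an NAD-dependent deacetylase, led the rises. Its arrays read 8.10 and 7.74 with DMSO, 8.22 and 8.08 with RVX2135, 8.14 and 8.39 with VE-821 and 9.28 and 9.26 with both drugs. The arrays with both drugs stood clear above all others, while the groups with 1 drug overlapped each other. The rise was 1.35 ± 0.136 (2.54-fold, adjusted p = 6.09e-06). Sirt7, a nucleolar sirtuin, read 9.04 and 9.16 with DMSO, 9.58 and 9.68 with RVX2135, 9.23 and 9.23 with VE-821 and 10.03 and 9.99 with both drugs, and it rose by 0.53 with RVX2135 and 0.91 with both drugs.

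Kdm6a and Kdm3a, demethylases of silencing marks, were among the rises. Kdm6a, which removes the Polycomb mark, read 7.69 and 7.27 with DMSO, 8.03 and 7.56 with RVX2135, 7.71 and 7.79 with VE-821 and 8.58 and 8.44 with both drugs. RVX2135 overlapped DMSO, VE-821 lay just above it, and both drugs lay highest. The change with both drugs was 1.03 ± 0.166 (adjusted p = 0.000239). Kdm3a, which demethylates histone H3 at silenced genes, read 8.33 and 8.17 with DMSO, 8.74 and 8.45 with RVX2135, 8.53 and 8.46 with VE-821 and 9.24 and 9.09 with both drugs. All treated arrays exceeded DMSO. By this probe Kdm3a was called with both drugs (0.92 ± 0.123, adjusted p = 5.95e-05) and missed the threshold with RVX2135 (0.35, adjusted p = 0.0546). Its 2 dimmer probes were called with both drugs (0.90 and 1.09) and with RVX2135 alone (0.60 and 0.53), and 1 of them with VE-821 alone (0.34, adjusted p = 0.0476).

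The related Kdm4 enzymes also rose with both drugs. Kdm4b read 7.96 and 7.94 with DMSO, 8.69 and 8.56 with RVX2135, 8.21 and 8.17 with VE-821 and 8.71 and 8.72 with both drugs. VE-821 lay just above DMSO, and the arrays with RVX2135 were higher (0.67, adjusted p = 0.000488), with those of both drugs just above them (0.76). A dimmer Kdm4b probe was not called, with 0.02 for RVX2135 (adjusted p = 0.943) and 0.23 for both drugs (adjusted p = 0.224). Kdm4a read 5.10 and 5.11 with DMSO, 5.59 and 5.53 with RVX2135, 5.66 and 5.82 with VE-821 and 5.67 and 5.69 with both drugs. All treated arrays were above DMSO and close together, with 0.46 for RVX2135, 0.64 for VE-821 and 0.58 for both drugs. Kdm4c read 5.62 and 5.35 with DMSO, 5.67 and 5.39 with RVX2135, 5.72 and 5.99 with VE-821 and 6.42 and 6.25 with both drugs. RVX2135 overlapped DMSO, VE-821 lay above it and both drugs were highest (0.85, adjusted p = 0.000329).

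Demethylases of other kinds went both ways. Kdm5c, which removes active methyl marks from histone H3, was dim and read 4.91 and 4.49 with DMSO, 4.88 and 4.71 with RVX2135, 4.48 and 4.67 with VE-821 and 5.37 and 5.50 with both drugs. DMSO overlapped each single drug, and both drugs lay above all of these (0.73, adjusted p = 0.000976). Kdm1a, a demethylase of the same mark, rose by 0.50. Its relative Kdm1b read 8.99 and 8.81 with DMSO, 8.76 and 8.44 with RVX2135, 9.01 and 8.74 with VE-821 and 8.19 and 8.07 with both drugs. VE-821 overlapped DMSO and both drugs lay lowest (-0.77, adjusted p = 0.000491). Its 2 dimmer probes gave -0.29 and -0.34, neither called. Kdm8, a JmjC-domain protein, read 7.64 and 7.86 with DMSO, 7.28 and 7.36 with RVX2135, 7.44 and 7.26 with VE-821 and 7.09 and 6.87 with both drugs. Each single drug lay between DMSO and both drugs, where the change was -0.77 (adjusted p = 0.000214). A dimmer Kdm8 probe gave -0.35, not called. Kdm5b (0.03, adjusted p = 0.851) was not called.

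Of the class II deacetylase genes, Hdac5, Hdac7 and Hdac10 fell with both drugs, Hdac4 rose (0.57) and Hdac6 was not called (0.27, adjusted p = 0.200). Hdac7 read 6.30 and 6.27 with DMSO, 5.87 and 6.16 with RVX2135, 5.55 and 5.45 with VE-821 and 4.34 and 4.24 with both drugs. The groups stepped down in that order without overlap, and with both drugs Hdac7 was not well above background on either array. It was at least 3.03-fold lower with both drugs than with DMSO (adjusted p = 8.21e-08). This bound sets the DMSO mean against the lowest signal of any detected probe on each dim array. VE-821 alone changed Hdac7 by -0.79 ± 0.117 (adjusted p = 0.000642), and with RVX2135 it read -0.27 (adjusted p = 0.107).

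Hdac5 read 9.14 and 9.18 with DMSO, 9.35 and 9.46 with RVX2135, 8.37 and 8.35 with VE-821 and 8.70 and 8.56 with both drugs. The arrays with VE-821 were lowest, those with both drugs were next, and those with RVX2135 were highest. Hdac5 changed by -0.81 with VE-821 (adjusted p = 0.000195) and -0.53 with both drugs (adjusted p = 0.000801), and its 2 dimmer probes gave falls called in both comparisons too.

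Hdac10 read 7.20 and 7.40 with DMSO, 6.96 and 6.76 with RVX2135, 7.05 and 6.76 with VE-821 and 6.60 and 6.43 with both drugs. The single drugs overlapped each other between DMSO and both drugs (-0.79, adjusted p = 0.000333). Sirt5, a mitochondrial sirtuin, read 5.55 and 5.66 with DMSO, 5.24 and 5.38 with RVX2135, 5.67 and 5.14 with VE-821 and 4.88 and 4.70 with both drugs. The arrays with VE-821 spanned those of DMSO and RVX2135, and both drugs were lowest (-0.82, adjusted p = 0.000824). A dimmer Sirt5 probe gave -1.27 with both drugs (adjusted p = 6.41e-06). It also fell with RVX2135 alone (-0.80, adjusted p = 0.000996), where the brightest probe read -0.29 and was not called. With VE-821 alone the dimmer probe read -0.09 (adjusted p = 0.682). Hdac8 fell with both drugs (-0.56). Of the ubiquitous class I enzymes, Hdac2 (-0.08, adjusted p = 0.470) was not called, and the calls for Hdac1 (-0.28) and Hdac3 (-0.24) were lost in 3 and 8 leave-one-out fits.

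**Figure D2:**
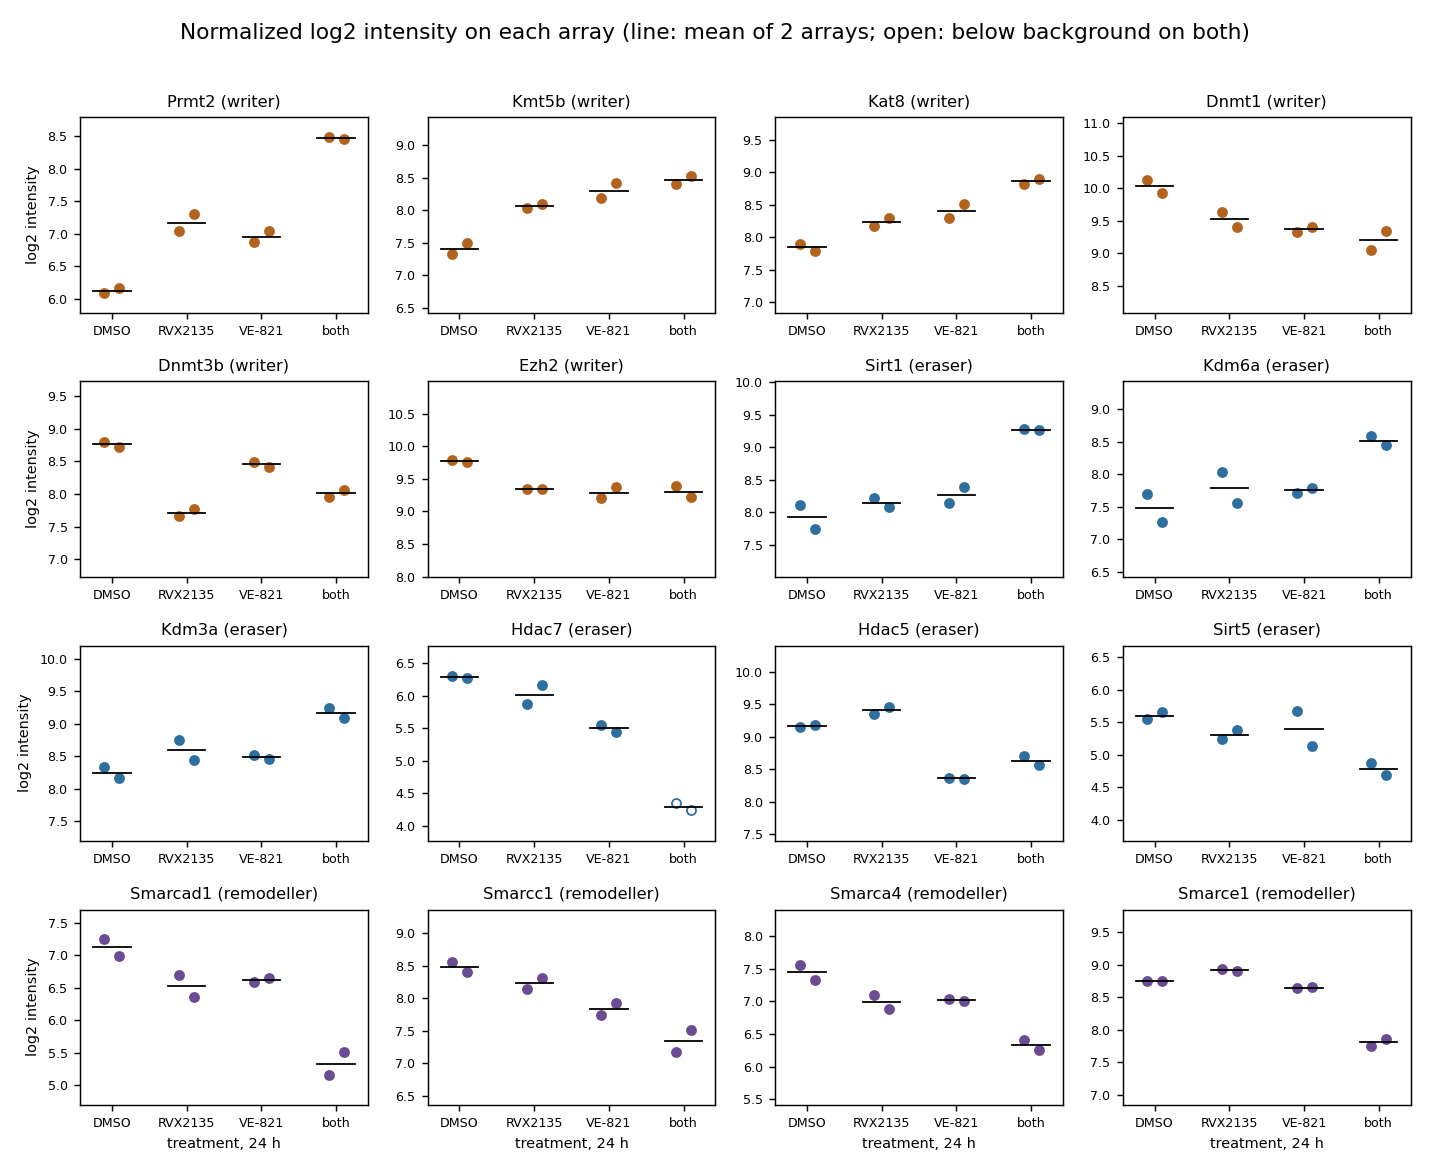
Normalized log2 intensity of 16 members on each of the 8 arrays by treatment; points are arrays, the line is the mean of 2 arrays, open points are not well above background on both arrays, and every panel spans the same number of log2 units around its own centre. Prmt2 steps up to 8.49 and 8.45 with both drugs and Smarcad1 steps down to 5.15 and 5.51, while Dnmt3b is lowest with RVX2135 alone.

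The corepressor complexes that hold Hdac1 and Hdac2 were counted beside them. All 7 NuRD genes tested were called with both drugs, 1 higher and 6 lower, where 59.7% of all genes were called and 30.8% were lower. Their median was -0.56, against -0.01 for all genes. The riser was Gatad2b (1.47, adjusted p = 7.82e-06), and the falls were led by Mta3 (-1.34, adjusted p = 1.17e-05), Cdk2ap1 (-0.79) and the ATPase Chd4 (-0.62). The calls for Mbd3, Mta2 and Mta1 were lost in 1, 3 and 5 leave-one-out fits. Of 8 other corepressor genes, 2 rose (Sap130 by 1.26, Brms1 by 0.75) and 2 fell (Suds3 with -0.87, Tbl1xr1 with -0.85).

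Smarcad1, a remodeller of heterochromatin and DNA breaks, had the largest fall measured above background among the remodellers. It read 7.25 and 6.99 with DMSO, 6.69 and 6.36 with RVX2135, 6.59 and 6.65 with VE-821 and 5.15 and 5.51 with both drugs. Both single-drug groups lay between DMSO and the arrays with both drugs, which were far lower. Its change with both drugs was -1.79 ± 0.150 (3.46-fold lower, adjusted p = 1.48e-06). With RVX2135 it was -0.59 and with VE-821 -0.50, calls lost in 2 and 3 leave-one-out fits.

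The SWI/SNF ATPase gene Smarca4 read 7.57 and 7.33 with DMSO, 7.10 and 6.89 with RVX2135, 7.04 and 7.00 with VE-821 and 6.41 and 6.26 with both drugs. The arrays with both drugs were below all others. Smarca4 changed by -1.11 ± 0.121 (2.16-fold lower, adjusted p = 1.12e-05), with -0.45 for RVX2135 and -0.42 for VE-821, each of these lost in at least 2 leave-one-out fits. The alternative ATPase Smarca2 read 7.82 and 8.00 with DMSO, 7.97 and 8.09 with RVX2135, 7.40 and 7.57 with VE-821 and 7.79 and 8.08 with both drugs. Its arrays with both drugs overlapped DMSO (0.03, adjusted p = 0.857).

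The scaffold subunit gene Smarcc1 read 8.55 and 8.41 with DMSO, 8.15 and 8.31 with RVX2135, 7.74 and 7.92 with VE-821 and 7.18 and 7.51 with both drugs. RVX2135 lay just below DMSO, VE-821 lower, and both drugs lowest, without overlap. It changed by -0.65 ± 0.132 with VE-821 (adjusted p = 0.00462) and -1.14 ± 0.132 with both drugs (adjusted p = 1.91e-05). A dimmer Smarcc1 probe had the single drugs in the other order. It gave -0.50 with RVX2135 (adjusted p = 0.00778), -0.33 with VE-821 (adjusted p = 0.0636) and -0.74 with both drugs (adjusted p = 0.000189). The paralog Smarcc2 read 5.70 and 5.67 with DMSO, 5.09 and 5.39 with RVX2135, 5.22 and 4.93 with VE-821 and 4.35 and 4.40 with both drugs. With both drugs Smarcc2 was not well above background on either array. There it was at least 2.00-fold lower than with DMSO (adjusted p = 5.03e-06).

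Smarce1, another SWI/SNF subunit, read 8.76 and 8.74 with DMSO, 8.94 and 8.90 with RVX2135, 8.64 and 8.65 with VE-821 and 7.75 and 7.85 with both drugs. RVX2135 lay just above DMSO and VE-821 just below it, and the arrays with both drugs were far lower. It changed by -0.95 ± 0.0969 (adjusted p = 6.92e-06), and its dimmer probe by -1.12 (adjusted p = 5.52e-06). The falls of Smarcb1 (-0.31, adjusted p = 0.0489) and Smarcd2 (-0.36, adjusted p = 0.00977) were lost in 6 and 2 leave-one-out fits, and Smarcd1 and Smarcal1 were not called. Subunits with other names did not all fall: of 10 tested, 2 rose and 4 fell with both drugs. Their share called (60.0%) lay near that of all genes (59.7%, with 28.9% higher and 30.8% lower). Bcl7a fell by 1.76 (adjusted p = 7.60e-08). Dpf3, not well above background with DMSO, was at least 1.34-fold higher (adjusted p = 4.81e-05).

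**Figure D3:**
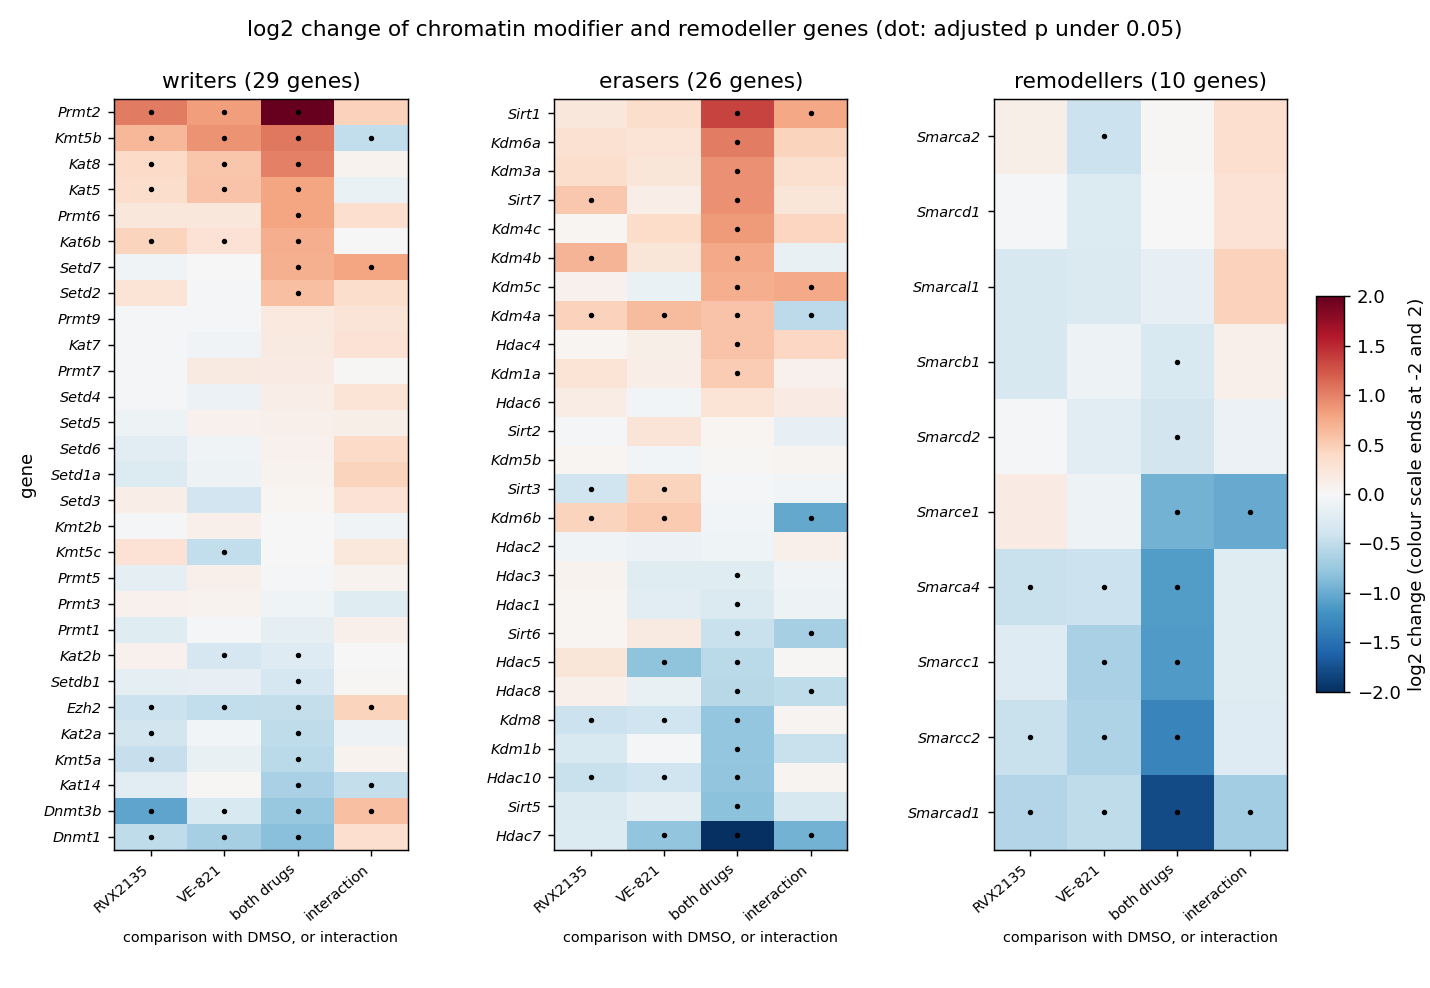
Colour gives the log2 change of every member (rows, by class) with RVX2135, VE-821 and both drugs against DMSO and the interaction (columns); a dot marks an adjusted p under 0.05 and the colour scale ends at -2 and 2. With both drugs dots fill 43 of 65 rows, and the remodeller panel holds no called rise against DMSO.

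RVX2135 alone raised 9 members and lowered 11, with 45 not called. The share called was 30.77%, against 30.5% of all genes (15.0% higher, 15.4% lower), a share near the background. Writers had 5 higher and 5 lower, erasers 4 higher and 3 lower, and remodellers 0 higher and 3 lower, with medians of -0.03, 0.06 and -0.28. In every leave-one-out fit 8 of the 20 calls held: Prmt2, Kmt5b, Kat6b (0.44), Kdm4a (0.46), Kdm4b and Sirt7 higher, and Dnmt3b and Kmt5a lower. The count was 10 without DMSO replicate 1 and 12 without RVX2135 replicate 2. Fragile calls included the fall of Hdac10 (-0.44), Kdm8 (-0.43), Sirt3 (-0.40), Kat2a (-0.36) and Smarcc2 (-0.45), each lost in at least 2 of these fits. No Setd gene of 8 was called.

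VE-821 alone raised 8 members and lowered 14, with 43 not called. Of all genes 23.8% were called, 12.1% higher and 11.7% lower, against 33.85% of the members. Writers had 5 higher and 5 lower, erasers 3 higher and 4 lower, and remodellers 0 higher and 5 lower, with medians of -0.03, 0.04 and -0.36. Every leave-one-out fit kept 8 of the 22 calls: Prmt2, Kmt5b, Kat5 (0.57) and Kdm4a (0.64) higher, and Dnmt1, Hdac5, Hdac7 and Smarcc1 lower. The count was 13 without DMSO replicate 1, 14 without VE-821 replicate 1 and 11 without VE-821 replicate 2.

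Both single-drug comparisons share the DMSO arrays, so the drugs were also set against each other. Between RVX2135 and VE-821, 10 members were higher with RVX2135, 3 were lower and 52 were not called. Of all genes 26.5% were called (13.2% higher, 13.3% lower), against 20.0% of the members. Hdac5 was higher with RVX2135 by 1.05 ± 0.102 (adjusted p = 2.48e-05). For Dnmt3b the difference was -0.74 ± 0.103 (adjusted p = 0.000324).

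Sirt3, the main mitochondrial deacetylase, read 7.54 and 7.62 with DMSO, 7.19 and 7.17 with RVX2135, 7.91 and 8.13 with VE-821 and 7.58 and 7.55 with both drugs. RVX2135 lay below DMSO, VE-821 lay above it, and both drugs overlapped DMSO. The drugs differed by -0.84 ± 0.107 (adjusted p = 0.000184). Kmt5c, which like Kmt5b methylates histone H4, read 7.66 and 7.86 with DMSO, 7.98 and 8.11 with RVX2135, 7.24 and 7.29 with VE-821 and 7.64 and 7.86 with both drugs. Here VE-821 was lowest and RVX2135 highest, and the difference was 0.78 ± 0.118 (adjusted p = 0.000573). These 4 differences held in every leave-one-out fit. The other 9 did not, among them Smarca2 (0.55), and the count was 6 without RVX2135 replicate 2 or VE-821 replicate 1 and 8 without VE-821 replicate 2.

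Adding the second drug moved many members again. Both drugs against RVX2135 alone gave 18 higher, 19 lower and 28 not called, with 51.2% of all genes called. Both drugs against VE-821 alone gave 19 higher, 18 lower and 28 not called, with 50.7% of all genes called. The members' share was 56.92% in each comparison, and these comparisons share the arrays with both drugs. Prmt2 was higher than with RVX2135 by 1.30 (adjusted p = 4.85e-06) and higher than with VE-821 by 1.51 (adjusted p = 1.34e-06). Sirt1 was higher by 1.12 and 1.00. Smarcad1 was lower, with -1.20 and -1.29, as was Smarce1, with -1.12 and -0.84. Of the 29 writers 10 were higher and 2 lower than with RVX2135, where 24.8% of all genes were higher and 26.4% lower. Only 5 of these writer calls held in every leave-one-out fit, and the split was not tested. Among the remodellers Smarca2 alone was higher than with VE-821 (0.45), a call lost in 2 leave-one-out fits. Against RVX2135, Dnmt3b was higher with both drugs (0.30, adjusted p = 0.0315), also lost in 2 such fits.

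The interaction asks whether the log2 effect of the pair differs from the sum of the single effects. It was called above 0 for 5 members and below 0 for 9, and 51 were not called. Of all genes 28.6% were called (13.1% above, 15.5% below), against 21.54% of the members. For most members, then, a departure from the sum was not detected at this precision, with a median standard error of 0.165 over all genes. In every leave-one-out fit 4 calls held. The count fell to 6 without DMSO replicate 1, to 7 without DMSO replicate 2 and to 9 without either RVX2135 array or without VE-821 replicate 1.

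Smarce1 had an interaction of -1.01 ± 0.137 (adjusted p = 0.000454). With RVX2135 alone it read 0.17 and with VE-821 alone -0.11, neither called. Its dimmer probe gave -0.97 (adjusted p = 0.00136). Hdac7 had an interaction of -0.94 ± 0.166 (adjusted p = 0.00215), in which the value with both drugs was not well above background. Dnmt3b had 0.60 ± 0.145 (adjusted p = 0.0105), so the pair lowered it by less than the sum of the single changes.

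Kdm6b, the second demethylase of the Polycomb mark, read 6.70 and 6.90 with DMSO, 7.23 and 7.25 with RVX2135, 7.30 and 7.35 with VE-821 and 6.81 and 6.68 with both drugs. The groups with 1 drug lay above DMSO and the arrays with both drugs overlapped it. The single changes were 0.44 and 0.53, calls lost in 2 and 1 leave-one-out fits, and the interaction was -1.02 ± 0.154 (adjusted p = 0.000775). A second Kdm6b probe disagreed. It gave 0.38 with both drugs (adjusted p = 0.0118), 0.08 with RVX2135, 0.51 with VE-821 and an interaction of -0.21 (adjusted p = 0.360).

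Sirt1 had an interaction of 0.77 (adjusted p = 0.0122), lost without DMSO replicate 1. Setd7 (0.78) and Kdm5c (0.77) had interactions of like size near the detection limit, each lost in 3 such fits. Smarcad1 (-0.70) and Sirt6 (-0.66) were lost in 5 each, and the 2 dimmer Sirt6 probes gave 0.03 and 0.22, neither called. The remaining calls were Ezh2 (0.45), Kdm4a (-0.52), Hdac8 (-0.51), Kmt5b (-0.49) and Kat14 (-0.47), and each was lost in at least 4.

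**Figure D4:**
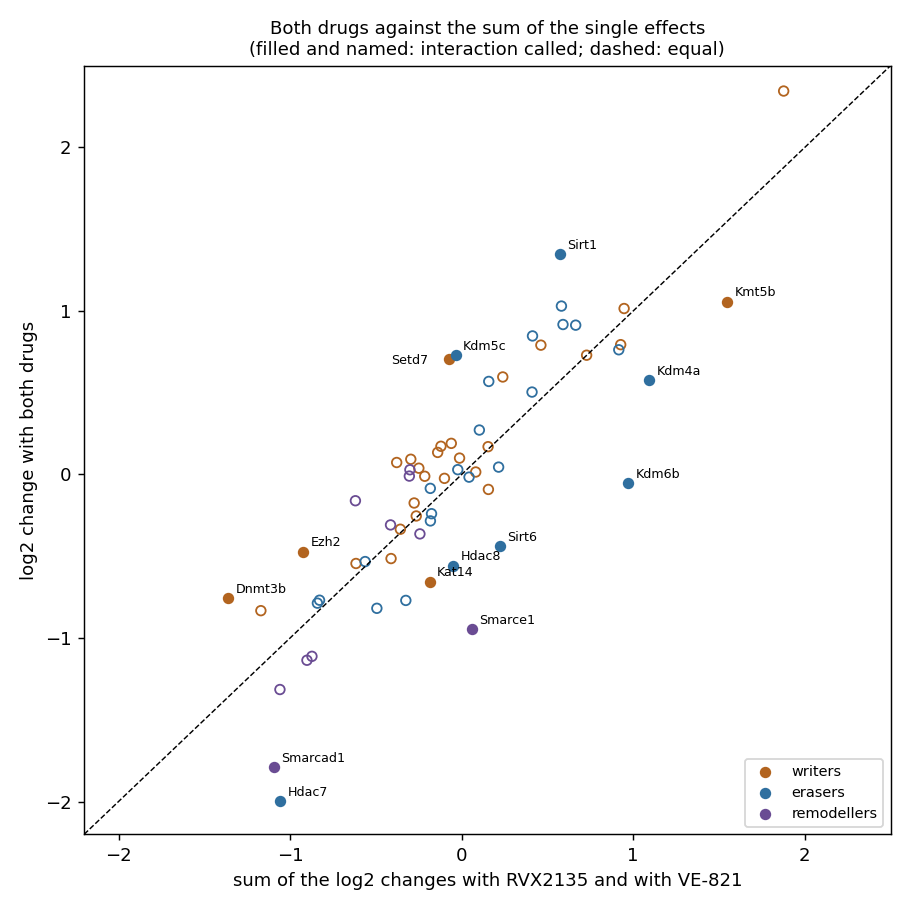
For each member the horizontal axis gives the sum of the log2 changes with RVX2135 and with VE-821 alone and the vertical axis the log2 change with both drugs; filled, named points have a called interaction and the dashed line marks equality. Smarce1 and Kdm6b lie below the line, with interactions of -1.01 and -1.02, and Sirt1 lies above it by 0.77.

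Of the 65 members 25 had further kept probes, 36 in all. Calls in this paragraph, and the adjusted p of every further probe, come from a limma fit of all 11761 kept probes. In that fit the brightest probe was not called for Kat2b with both drugs (adjusted p = 0.0532) or Dnmt3b with VE-821 (adjusted p = 0.0583). The same was true of the Ezh2 interaction (adjusted p = 0.054). The further probes of these results, none of them called, are left out of the counts. Where the brightest probe was called with both drugs against DMSO, all 26 further probes had the same sign and 17 were called as well. The other 9 were 2 of Kdm1b and 1 each of Dnmt3b, Ezh2, Kat6b, Kdm4b, Kdm8, Kmt5a and Sirt6. For RVX2135 the same held for 14 of 14 probes, with 7 called, and for VE-821 for 12 of 12, with 7 called. With both drugs against RVX2135, 20 of 22 had the same sign and 1, that of Kdm6b, was called in the opposite direction. With both drugs against VE-821, 22 of 23 had the same sign and 11 were called. Agreement was lower for RVX2135 against VE-821, with 8 of 10 of the same sign and 2 called, and for the interaction, with 6 of 8 of the same sign and 2 called.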

How the data were processed

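Per the file headers, the authors deposited linear probe intensities without normalization, each with a detection p-value. Values below 0 show a background subtracted before deposit, and GenomeStudio is named per the submitters' processing notes. A second deposited table held intensities normalized by the authors (method: not given in the sources used here). Probes were named from the platform annotation: 23978 had 1 symbol, 0 several and 1719 none. Symbols were updated through Entrez identifiers for 23962 and kept for 16.

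limma 3.58.1 in R 4.3.3 corrected the background with neqc (offset 16), quantile-normalized the arrays and took log2 of the deposited intensities. Probes that both arrays of 1 or more groups detected at p under 0.05 were kept, 11761 in all (709 unnamed). The brightest probe stood for each of the 2153 genes with several. All 8 arrays entered 1 linear model of group means (lmFit, then eBayes, with 4 residual and 7.21 prior degrees of freedom), followed by two-sided moderated tests and Benjamini-Hochberg adjustment per comparison at 0.05. The number of arrays limits the precision, with a median standard error of 0.117 for a difference of 2 groups. The labels give no slide or scan date. The script was tested on simulated data.

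The members and gene lists were chosen with earlier results of these data known. Named in full were, for each comparison with DMSO and class, up to 4 called members with the largest rise and 4 with the largest fall, up to 3 in each direction for the other comparisons, and well-known members whatever their change. The partner lists were PRC2, COMPASS, other SWI/SNF subunits, NuRD, other corepressors, other remodellers, other writers, DNA methylation partners and S phase genes, and markers of B lineage, T and NK, myeloid, erythroid and platelet, and stromal and endothelial cells. Alternatives were other normalizations, detection filters, probe choice, variance prior, replicate number as a block and leaving out each array.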

Additional observations from a re-analysis of the deposited data

Results flagged for a closer look

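The interaction test (limma, adjusted p under 0.05) called 5 members above 0 and 9 below. For these the effect of one drug differed with and without the other. The 6 given here are the 3 with the largest estimates in each direction. Smarce1 had an interaction of -1.01, Kdm6b of -1.02 and Hdac7 of -0.94. In the other direction Setd7 had 0.78, Sirt1 0.77 and Kdm5c 0.77. The value of Hdac7 with both drugs was not well above background, so its size is not exact and its place among the others is not known. The first 3 were called in every leave-one-out fit, Sirt1 was lost in 1 such fit, and Setd7 and Kdm5c in 3 each. Among these members, a second probe of Smarce1 gave -0.97 (adjusted p = 0.00136) and one of Setd7 0.64 (adjusted p = 0.0246), while that of Kdm6b gave -0.21 (adjusted p = 0.360).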

How the results depend on the processing

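With 2 arrays a group, small changes depend on single arrays. Leaving out each array in turn, the number of members called ranged from 10 to 20 for RVX2135, 11 to 20 for VE-821, 36 to 41 for both drugs, 27 to 37 for both drugs against RVX2135, 26 to 37 for both drugs against VE-821, 6 to 13 for RVX2135 against VE-821 and 6 to 12 for the interaction. Class medians then ranged, for writers, from -0.06 to -0.03 with RVX2135, -0.0810 to -0.0023 with VE-821 and 0.0286 to 0.105 with both. For erasers they ranged from 0.0278 to 0.138, 0.0191 to 0.126 and -0.03 to 0.05, and for remodellers from -0.30 to -0.19, -0.39 to -0.27 and -0.71 to -0.60. Without the detection filter 7 interactions were called, more genes being tested. With detection required on all arrays the median was 0.0385 for writers with both drugs and 0.13 for erasers with VE-821, over fewer genes.

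Every other alternative gave counts within 1.5 times of those reported. With the authors' normalized intensities 184 single-gene results kept their side of the threshold, 1 gained a call and 6 lost one. Under no alternative run did a result called in either fit change direction. Changes of sign in results called in neither fit were not counted. Arrays of the same replicate number also share a letter in the labels, which do not say what it marks. Their deviations correlated at -0.03 to 0.18 between groups, not over 0.1 in every pair of groups, so no pairing was taken from them. With the replicate number as a block, 23 members were called for RVX2135, 21 for VE-821, 43 for both drugs, 39 and 37 for both against RVX2135 and VE-821, 14 between the drugs and 15 for the interaction. Dim probes such as Setd7, Kdm5c, Prmt9 and Setd4 lie near background, where changes are compressed.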

Other observations

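Writers and remodellers outside the named families had both directions with both drugs, where 28.9% of all genes were higher and 30.8% lower. Of 15 other writers 6 rose and 6 fell, among them the Polycomb ubiquitin ligase genes Rnf2 (0.87, adjusted p = 7.56e-05) and Ring1 (0.64), which rose, and their partner Bmi1 (-0.61), which fell. Smyd2 (-0.78) and Smyd5 (-0.78) fell. Of 8 COMPASS genes, which serve the enzymes that methylate histone H3 at promoters, 2 rose and 3 fell, led by Rbbp5 (1.11, adjusted p = 1.96e-06) and Ash2l (-0.64, adjusted p = 0.000318). Of 10 remodellers outside the Smarc names 2 rose and 3 fell, each call lost in at least 1 leave-one-out fit. Against 15.4% of all genes, RVX2135 alone lowered 4 of these 10, among them Ruvbl2 (-0.53) and Baz1a (-0.57).

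With RVX2135, Phf19 of the PRC2 list fell by 0.90 (adjusted p = 6.91e-05), and with VE-821 it read -0.16 (adjusted p = 0.277). The 2 treatments differed by -0.74 (adjusted p = 0.000258). Mbd4, a glycosylase of methylated DNA sites, read -0.62 with RVX2135, -1.05 with VE-821 and -0.55 with both drugs.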
